A study of Bos taurus with 10 samples.

Results

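The subject is 10 enzymes that build triacylglycerol, the storage fat of adipose tissue, in 2 fat depots of cattle. They are GPD1, GPAM, GPAT3, GPAT4, AGPAT1, AGPAT2, AGPAT3, LPIN1, LPIN2 and DGAT1, chosen by name from the 12674 genes of the deposited table, and all 10 passed the filter on low counts. The groups are intramuscular fat, the marbling that lies among the muscle fibres, and subcutaneous fat, the layer beneath the skin. Both were taken from the same 5 adult female cattle, heifers of an Angus cross, so each depot gave 5 libraries of total RNA, and the libraries are called by depot and animal number. The study set out to find what lies behind the later and slower growth of marbling. No treatment or genetic change is given in the labels for either depot. Counts over the listed genes were 9392739 to 14836808 per intramuscular library and 13776094 to 17685678 per subcutaneous library, and levels are given as CPM, counts scaled to a common library size.

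Triacylglycerol is made by adding fatty acids in turn to a glycerol 3-phosphate backbone. GPD1 makes that backbone from a glycolytic intermediate, the glycerol-3-phosphate acyltransferases (GPAM, GPAT3, GPAT4) attach the first fatty acid, and the lysophosphatidate acyltransferases (AGPAT1, AGPAT2, AGPAT3) attach the second. Lipins then remove the phosphate to leave diacylglycerol, and DGAT1 adds the last fatty acid. In humans and mice, loss of AGPAT2 causes a near absence of fat tissue, and mice without lipin 1 also have little fat.

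Of the 10 members 8 had lower and 2 had higher fitted levels in intramuscular fat, and 1 passed the unpaired test. DGAT1, which performs the last step, fell, and its 5 intramuscular values all lay beneath its 5 subcutaneous values. AGPAT2, by far the most abundant member, was lower by a factor of 2.61 and lower in all 5 animals, with an adjusted p of 0.0575. With the animal as a block, since both depots came from the same animals, DGAT1 was not called (edgeR adjusted p = 0.0512) and AGPAT2 was called lower (0.00747). GPAT3 and LPIN1 had the opposite sign, at 2.23 and 1.89 times the subcutaneous level, and neither passed the test. Of the 10 members, 0 were called higher and 1 lower by edgeR's quasi-likelihood test, at an adjusted p of 0.05 over all 12521 genes tested. Over all those genes 6.75% were called higher and 5.49% lower, and 1 of 10 members is read against that background. The median log2 fold change (intramuscular over subcutaneous) was -0.44 for the members and -0.04 for all genes tested, and 8 of 10 members had a negative sign, against 52.9% of all genes tested.

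**Figure D1:**
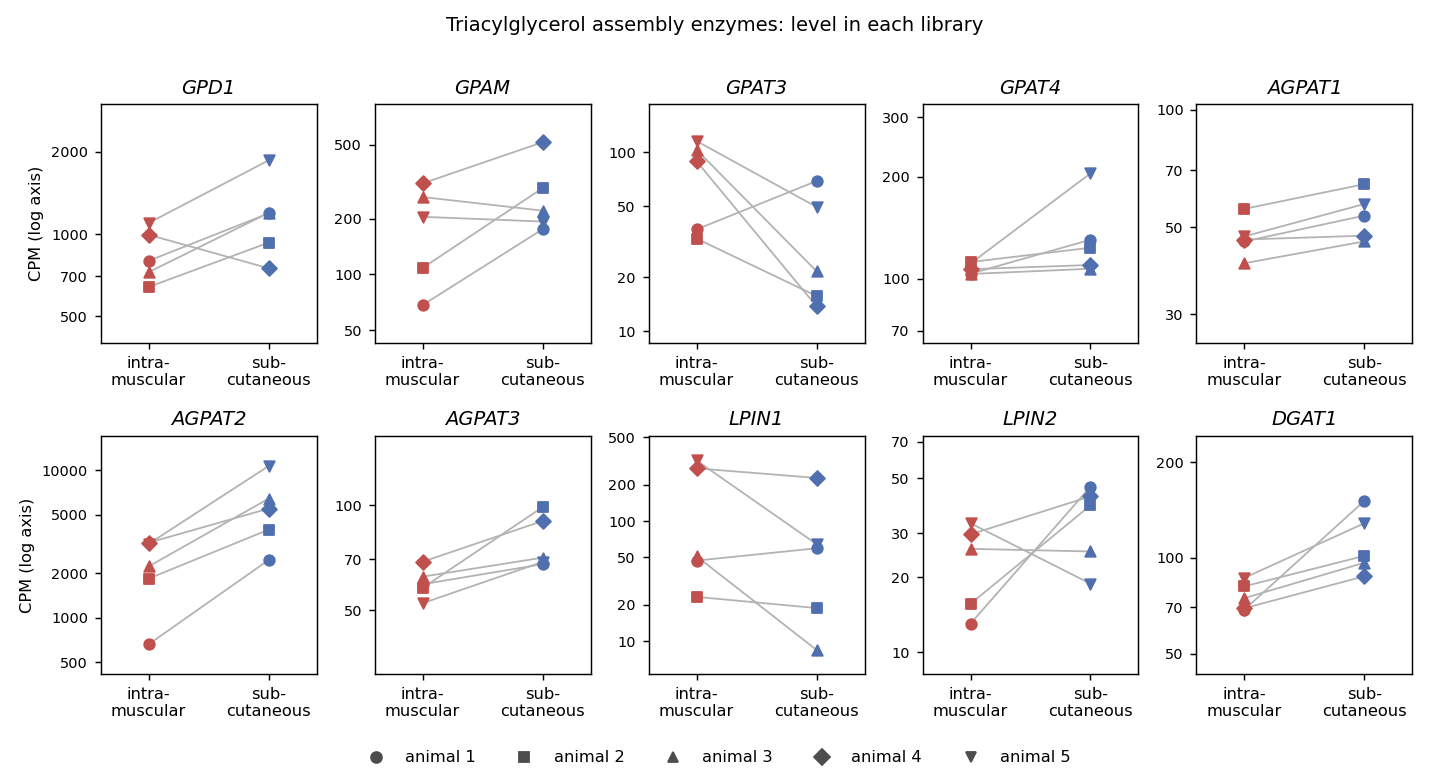
CPM of each enzyme (log axis, scaled per panel) in the 5 intramuscular libraries (red, left) and the 5 subcutaneous libraries (blue, right), with grey lines joining the depots of 1 animal. The lines of AGPAT2 and DGAT1 all climb towards subcutaneous fat, those of GPAT3 mostly fall, and LPIN1 spreads from 8.44 to 319.6 CPM.

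The backbone enzyme GPD1 (glycerol-3-phosphate dehydrogenase of the cytosol, ENSBTAG00000016296, chromosome 5, 29788762 to 29795178 in the deposited table's coordinates) was abundant in both depots. It measured 798, 640.5, 726, 993 and 1097 CPM in intramuscular fat of animals 1 to 5, against 1189, 930.0, 1194, 749.8 and 1857 CPM in their subcutaneous fat. The ranges overlapped, and animal 4 alone had more in its intramuscular fat. The log2 fold change was -0.48 ± 0.25 (± SE; 95% interval -1.02 to 0.07; edgeR adjusted p = 0.216), an interval that includes no difference.

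Of the enzymes that attach the first fatty acid, GPAM, which sits on the outer mitochondrial membrane, and GPAT3, an enzyme of the endoplasmic reticulum, had opposite signs. GPAM (ENSBTAG00000011917, chromosome 26) measured 68.3, 108, 262, 310.1 and 205 CPM in intramuscular fat, against 175, 292, 221, 517 and 193 CPM in subcutaneous fat of animals 1 to 5. Animals 1 and 2 had the lowest intramuscular values, beneath every subcutaneous one, while those of animals 3 to 5 lay within the subcutaneous range. The log2 fold change was -0.55 ± 0.40 (95% interval -1.42 to 0.31; edgeR adjusted p = 0.371).

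GPAT3 (ENSBTAG00000017592, chromosome 6, 98289617 to 98360326) measured 37.1, 33.0, 103, 89.1 and 115 CPM in intramuscular fat, against 69.1, 15.8, 21.7, 13.8 and 49.5 CPM in subcutaneous fat. Animals 3, 4 and 5 had intramuscular values above every subcutaneous one, and animal 1 went the other way. The log2 fold change was 1.15 ± 0.48 (95% interval 0.11 to 2.20; edgeR adjusted p = 0.127), and without subcutaneous replicate 1 it was 1.59 with an adjusted p of 0.0400. That was the only call in the 10 fits that left out 1 library. In those fits the edgeR adjusted p reached 0.242 and the log2 fold change fell to 0.95. GPAT4, the other enzyme of this step in the endoplasmic reticulum, was the steadiest member in intramuscular fat. It measured 103, 112, 103, 107 and 111 CPM there, against 130.4, 123, 107, 109.7 and 205 CPM in subcutaneous fat, where animal 5 stood apart. Its log2 fold change was -0.33 ± 0.18 (edgeR adjusted p = 0.230), and -0.13 without that library.

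AGPAT2 (ENSBTAG00000025161, chromosome 11, 104087838 to 104100209), the main lysophosphatidate acyltransferase of fat cells, had the largest negative fold change of the members. It measured 661, 1842, 2228, 3225 and 3166 CPM in intramuscular fat, against 2463, 3957, 6422, 5498 and 10682 CPM in subcutaneous fat of animals 1 to 5. Every animal had less in its intramuscular fat, by 0.77 to 1.90 on the log2 scale, yet the depots overlapped, since intramuscular animals 4 and 5 exceeded subcutaneous animal 1. The log2 fold change was -1.38 ± 0.44 (95% interval -2.34 to -0.43; edgeR adjusted p = 0.0575). With the animal as a block it was -1.41 ± 0.25 with an edgeR adjusted p of 0.00747, and in that fit AGPAT2 was the 1 member called lower, with 0 called higher. In that blocked fit 6.96% of all genes were called lower and 8.09% higher. The authors' deposited table lists AGPAT2 at -1.38 with an adjusted p of 0.00752. It calls 2 members lower, AGPAT2 and DGAT1, and 9.24% of its genes lower. Without subcutaneous replicate 1 the unblocked adjusted p was 0.0295, and in the other 9 fits that left out 1 library it lay between 0.0614 and 0.127.

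The mean level of fat cell transcripts was also lower in intramuscular fat. Of 14 adipocyte markers tested 0 were called higher and 2 lower, against 6.75% and 5.49% of all genes tested. The counts for other cell types below are read against the same shares. The mean log2 CPM of 14 adipocyte markers was 8.52, 9.73, 9.70, 10.22 and 10.34 in intramuscular fat of animals 1 to 5, and 10.48, 10.35, 10.50, 10.42 and 10.89 in subcutaneous fat. Intramuscular animal 1 had the least of both AGPAT2 and the markers, and subcutaneous animal 5 the most of both. Between these the order was not the same, since subcutaneous animal 1, with more of the markers than any intramuscular library, had less AGPAT2 than intramuscular animals 4 and 5. Of the 16 adipocyte markers listed 15 had values and 14 were tested. Their summed level was 7442 to 28609 CPM in intramuscular and 28338 to 42713 CPM in subcutaneous fat, and no marker with values was at 0 throughout a depot. Muscle transcripts ran the other way. The 8 striated muscle genes with values, of 29 listed, summed to 1656, 488, 1056, 329 and 400.1 CPM in intramuscular animals 1 to 5 and to 1.41 to 5.64 CPM in subcutaneous fat, where NMRK2, LRRC30 and CACNG6 were at 0 in all 5 libraries. The contractile genes of a further list of 22 were not analysed here. Of other cell types, 6 of 7 nerve genes and 2 of 4 mural genes were called higher in intramuscular fat, and 3 of 9 endothelial, 4 of 9 macrophage and 3 of 8 stromal progenitor genes lower. Their summed levels in intramuscular and subcutaneous libraries were 217 to 437 and 98.8 to 184 CPM for nerve, 996 to 1698 and 560.2 to 932 CPM for mural cells, and 1785 to 2306 and 2257 to 4200 CPM for endothelium. For macrophages they were 177 to 353 and 183 to 924 CPM, and for stromal progenitors 1698 to 2668 and 2149 to 4173 CPM. Without intramuscular animals 1 and 3, which had the most muscle transcripts, the log2 fold change of AGPAT2 was -1.09 (edgeR adjusted p = 0.214). The part of muscle, fat cell or other cell content in these values was not tested, and in bulk tissue fewer fat cells and less RNA per fat cell cannot be told apart.

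**Figure D2:**
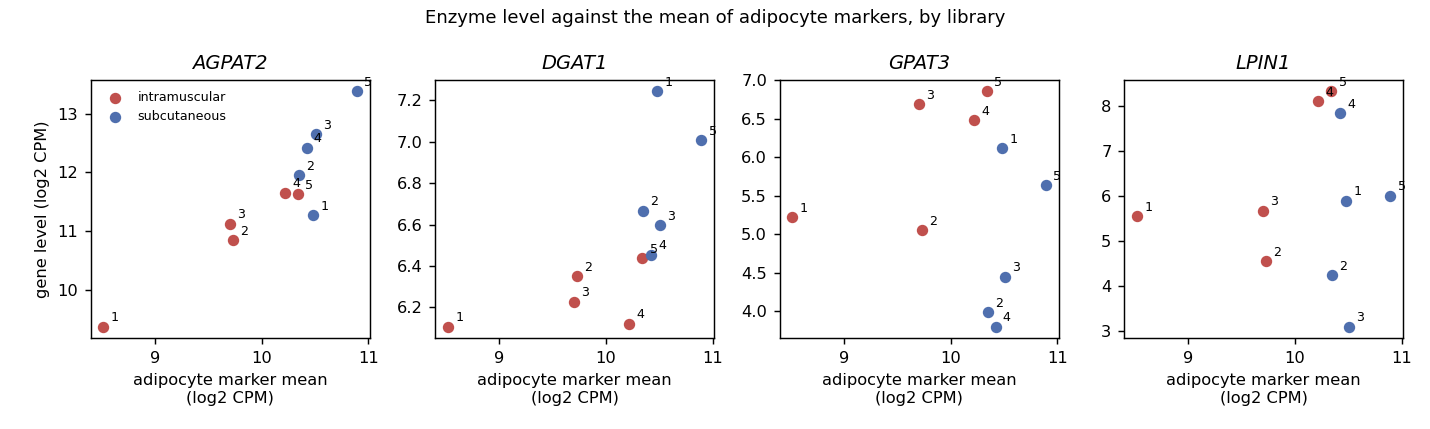
Level of 4 enzymes (log2 CPM, own vertical axis in each panel) against the mean log2 CPM of 14 adipocyte markers in each library, intramuscular in red and subcutaneous in blue, numbered by animal. AGPAT2 and the markers are both lowest in intramuscular animal 1 and both highest in subcutaneous animal 5, but subcutaneous animal 1 has less AGPAT2 than intramuscular animals 4 and 5 at a higher marker level, while GPAT3 and LPIN1 vary widely at like marker levels.

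The 2 other lysophosphatidate acyltransferases among the members, both broadly expressed, differed less. AGPAT3 (ENSBTAG00000020456, chromosome 1) measured 59.4, 58.0, 62.5, 68.9 and 52.4 CPM in intramuscular fat, against 67.8, 98.9, 70.8, 90.2 and 68.9 CPM in subcutaneous fat. It was lower in all 5 animals, and 4 intramuscular values lay under the subcutaneous range (log2 fold change -0.40 ± 0.15, edgeR adjusted p = 0.104). AGPAT1 (ENSBTAG00000004442, chromosome 23) measured 40.5 to 55.8 CPM in intramuscular and 46.1 to 64.6 CPM in subcutaneous fat, again lower in all 5 animals but by only 0.03 to 0.28 on the log2 scale. Its log2 fold change was -0.19 ± 0.15 (95% interval -0.51 to 0.13; edgeR adjusted p = 0.415). The AGPAT1 model overlaps 83 bases of EGFL8 on the opposite strand, and the strand setting of the counting is not given in the sources used here.

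LPIN1 encodes lipin 1, the phosphatidate phosphatase most typical of fat and muscle, which also acts as a transcriptional coactivator in mouse liver. Its spread among animals was wide in both depots. LPIN1 (ENSBTAG00000007689, chromosome 11, 86083907 to 86175202) measured 46.8, 23.3, 50.9, 275 and 319.6 CPM in intramuscular fat of animals 1 to 5, against 59.3, 18.8, 8.44, 229 and 64.2 CPM in their subcutaneous fat. Animal 4 was high in both depots and animal 2 low in both, while animals 3 and 5 were 2.57 and 2.31 higher on the log2 scale in intramuscular fat. The highest value was 13.7 times the lowest in intramuscular and 27.1 times the lowest in subcutaneous fat. The SD of LPIN1 within depots was 1.75 on the log2 scale, larger than that of 99.5% of the genes tested. Its log2 fold change was 0.91 ± 0.84 (95% interval -0.91 to 2.74; edgeR adjusted p = 0.489), 1.92 without subcutaneous replicate 4 and 0.38 without intramuscular replicate 5. The 2 intramuscular libraries with most LPIN1 were those with least striated muscle transcripts. They also had the highest adipocyte marker means of that depot, 10.22 and 10.34 log2 CPM, and neither link was tested.

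LPIN2, a lipin best known from liver, measured 13.0, 15.6, 26.0, 29.8 and 33.0 CPM in intramuscular fat, against 46.3, 38.9, 25.4, 42.3 and 18.8 CPM in subcutaneous fat (ENSBTAG00000012060, chromosome 24). It was lower in animals 1 and 2 by 1.82 and 1.31 on the log2 scale and higher by 0.80 in animal 5, so the depots overlapped. The log2 fold change was -0.55 ± 0.30 (95% interval -1.20 to 0.11; edgeR adjusted p = 0.240).

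DGAT1 (ENSBTAG00000026356, chromosome 14, 603813 to 612791), a diacylglycerol acyltransferase of the endoplasmic reticulum known in cattle for its link with milk fat, was at 68.8, 81.4, 74.8, 69.5 and 86.6 CPM in the intramuscular libraries. Its subcutaneous values were 151, 102, 96.6, 87.6 and 129 CPM. The depots did not overlap, which held for 1 of 10 members and, with intramuscular lower, for 5.04% of all genes tested, and all 5 animals had less in intramuscular fat. DGAT1 averaged 76.2 ± 7.69 CPM in intramuscular and 113 ± 26.2 CPM in subcutaneous fat (SD, n = 5 each), and the log2 fold change was -0.57 ± 0.17 (95% interval -0.94 to -0.20; edgeR adjusted p = 0.0461). The call lay close to the threshold. It held without subcutaneous replicate 4 (adjusted p = 0.0317), and in each of the other 9 fits that left out 1 library it was lost, at adjusted p of 0.0546 to 0.0980. Without intramuscular animals 1 and 3 the log2 fold change was -0.51 (adjusted p = 0.217). With the animal as a block the adjusted p was 0.0512, with upper quartile scaling 0.0504 and with limma voom 0.0512, and the authors' deposited table lists 0.0186. DGAT2, the other enzyme able to make this last bond, was not analysed here.

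**Figure D3:**
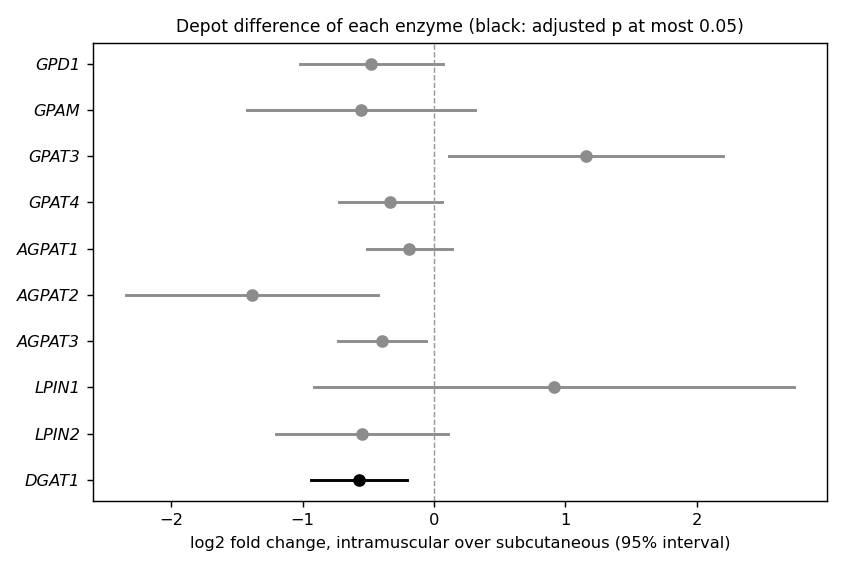
Log2 fold change of each enzyme, intramuscular over subcutaneous, with its 95% interval from the edgeR fit to all genes. DGAT1 (black) passed an adjusted p of 0.05; the intervals of AGPAT2, AGPAT3 and GPAT3 also leave out 0 but did not pass after adjustment over 12521 genes, and that of LPIN1 runs from -0.91 to 2.74.

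Animal by animal, the signs were all negative in animal 1 and mixed in the others. In animal 1 all 10 members were lower in intramuscular fat, with a median difference of -0.74 on the log2 scale. Animals 2, 3, 4 and 5 had 8, 6, 7 and 6 members lower, with medians of -0.43, -0.12, -0.19 and -0.33. The members lower in all 5 animals were GPAT4, AGPAT1, AGPAT2, AGPAT3 and DGAT1, while GPAT3 and LPIN1 were higher in 4 of 5. No share over all genes is given for these counts by animal, so they describe the members alone.

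**Figure D4:**
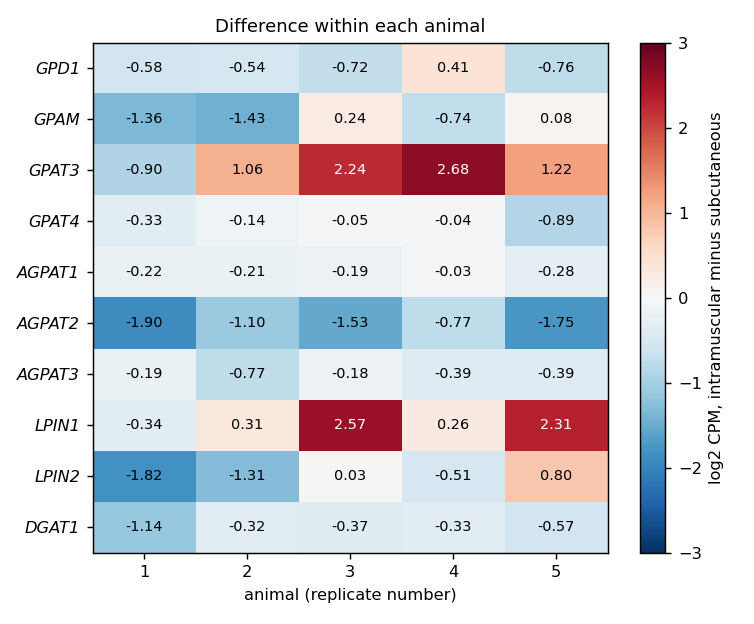
Difference in log2 CPM between intramuscular and subcutaneous fat of the same animal, for each enzyme (rows) and animal (columns), blue where intramuscular fat had less. The AGPAT2 row runs from -1.90 to -0.77 without a positive cell, and the strongest positive cells are GPAT3 in animal 4 at 2.68 and LPIN1 in animal 3 at 2.57.

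Per kilobase of gene model the order of levels was alike at the top in both depots. AGPAT2 averaged 1556 ± 740.1 CPM per kilobase in intramuscular and 4059 ± 2179 in subcutaneous fat (SD, n = 5), and GPD1 346 ± 77.0 in intramuscular and 482 ± 171 in subcutaneous fat. Among all 12521 tested genes AGPAT2 ranked 15 to 109 in the intramuscular and 3 to 20 in the subcutaneous libraries. In intramuscular fat LPIN1, GPAT4, GPAM, DGAT1, GPAT3 and AGPAT3 followed at 40.4, 39.6, 38.1, 35.7, 30.6 and 27.5 CPM per kilobase, and each overlapped its neighbour in that order. AGPAT1 at 16.0 and LPIN2 at 6.13 came last, each with a range below that of the gene before it. In subcutaneous fat GPAM, DGAT1, GPAT4, AGPAT3, LPIN1, AGPAT1, GPAT3 and LPIN2 followed GPD1 at 56.0, 53.0, 49.9, 36.2, 21.4, 18.3, 13.8 and 8.97, and the ranges of neighbours overlapped throughout. The place of LPIN1 in intramuscular fat rests on animals 4 and 5. Its values there were 13.2, 6.60, 14.4, 77.6 and 90.4 CPM per kilobase in animals 1 to 5 (SD 40.1). The place of LPIN1 in subcutaneous fat rests on animal 4, without which its mean was 37.7 CPM, against 75.9 CPM with it. GPAT3 thus stood at 30.6 ± 15.5 CPM per kilobase in intramuscular and 13.8 ± 9.86 in subcutaneous fat.

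Shares of transcripts within a family, also per kilobase, are given as a description. AGPAT2 made up 78.6, 94.4, 94.7, 96.7 and 96.9% of the 6 lysophosphatidate acyltransferases in intramuscular fat of animals 1 to 5, and 96.2 to 99.1% in subcutaneous fat. Of the 4 glycerol-3-phosphate acyltransferases GPAT3 held 26.4 ± 7.47% in intramuscular and 11.8 ± 8.59% in subcutaneous fat (SD, n = 5). GPAM held 32.6 ± 9.65% in intramuscular and 45.8 ± 16.5% in subcutaneous fat, and GPAT4 39.3 ± 13.7% in intramuscular and 41.9 ± 10.3% in subcutaneous fat. The share of GPAT3 overlapped between depots, since subcutaneous animal 1 had 25.1%. Among the 3 lipins LPIN1 held 57.7 ± 22.3% in intramuscular and 34.3 ± 24.6% in subcutaneous fat, and it was the leading lipin in 4 of 5 intramuscular but in 2 of 5 subcutaneous libraries.

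**Figure D5:**
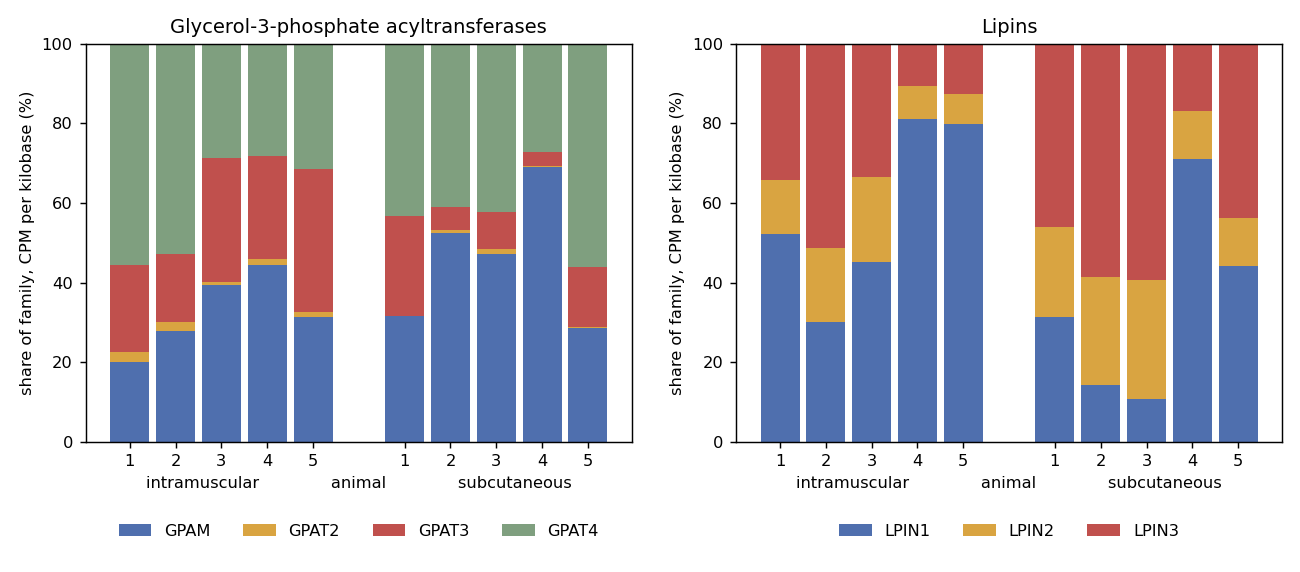
Share of each enzyme in its family, from CPM per kilobase, for every library (intramuscular left, subcutaneous right, animals 1 to 5 in each). GPAT3 (red, left panel) takes 17.1 to 36.0% in intramuscular and 3.74 to 25.1% in subcutaneous libraries, and LPIN1 (blue, right panel) takes 81.2% and 71.0% in the 2 depots of animal 4.

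Set against the fat cell markers of the same library, 1 member had a negative and 9 a positive difference between the depots. The marker mean was 0.83 lower on the log2 scale in intramuscular fat, so on this scale the median difference of all tested genes was 0.82. AGPAT2 had the negative difference, -0.58, as it stood 1.22 ± 0.25 above the markers in intramuscular and 1.80 ± 0.65 above them in subcutaneous fat (SD, n = 5). On this scale AGPAT2 was lower in intramuscular fat in 4 of 5 animals and slightly higher in animal 1. DGAT1, GPAM, LPIN2, GPD1, AGPAT3, GPAT4 and AGPAT1 had positive differences of 0.28, 0.19, 0.27, 0.39, 0.45, 0.54 and 0.64, which are all smaller than the median of all genes. GPAT3 and LPIN1 had larger differences, 2.09 and 1.85, which lay above the median of all genes. LPIN1 spread widely on this scale, with an SD of 1.34 in intramuscular and 1.80 in subcutaneous fat. GPAT3, LPIN1 and AGPAT1 were higher relative to the markers in all 5 animals. The depots overlapped for all 10 members on this scale, and no test was made of it.

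Around the members, 42 further genes of the pathway and its branches had values, of 49 listed, and 6 were called higher and 6 lower in intramuscular fat. Over all genes tested 6.75% were called higher and 5.49% lower, and the counts for each list are read against the same background. Their median log2 fold change was -0.02, against -0.04 for all genes. AGPAT5, a mitochondrial relative of the AGPAT members, measured 124, 46.4, 62.0, 38.5 and 36.1 CPM in intramuscular fat, against 20.5, 21.5, 16.7, 22.7 and 10.4 CPM in subcutaneous fat (log2 fold change 1.74 ± 0.34, edgeR adjusted p = 0.00738). The depots did not overlap for AGPAT5, and without intramuscular animals 1 and 3 it was still called (1.14, adjusted p = 0.0368). Its highest library, intramuscular animal 1, was also the one with most striated muscle transcripts and the lowest adipocyte marker mean. GPD2, the mitochondrial enzyme that oxidises glycerol 3-phosphate, averaged 5.99 ± 2.90 CPM in intramuscular and 1.56 ± 0.661 CPM in subcutaneous fat (adjusted p = 0.0167, and 0.0609 without intramuscular replicate 3). GPAT2, a mitochondrial enzyme of the first acylation best known from testis in mice, measured 4.77, 4.70, 2.78, 4.88 and 3.99 CPM in intramuscular fat, against 0.452, 2.13, 3.04, 0.529 and 0.680 CPM in subcutaneous fat. Its log2 fold change was 1.62 ± 0.55 (edgeR adjusted p = 0.0691), and it was called higher with DESeq2 (0.0200), with limma voom (0.0284) and without subcutaneous replicate 3 (0.0303).

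Among the acyl-CoA synthetases, which activate fatty acids for every acylation step, 1 of 5 rose and 1 fell. ACSL3, a synthetase of the endoplasmic reticulum and lipid droplet, measured 60.2, 52.1, 61.9, 111 and 80.9 CPM in intramuscular fat, against 43.5, 27.1, 28.2, 48.8 and 38.6 CPM in subcutaneous fat (adjusted p = 0.0201, and 0.0513 without subcutaneous replicate 3). ACSL5 measured 15.8, 31.7, 26.0, 61.4 and 58.2 CPM in intramuscular fat, against 57.4, 56.3, 68.4, 229 and 182 CPM in subcutaneous fat (log2 fold change -1.62 ± 0.47, adjusted p = 0.0422). The ACSL5 call was lost without intramuscular replicate 1, 2 or 3 or subcutaneous replicate 4 or 5, at adjusted p of 0.0841 to 0.103, and with limma voom (0.0533), and with the animal as a block the adjusted p was 0.00123. ACSL1, the main synthetase of fat cells, ran from 216 to 796 CPM in intramuscular and from 186 to 1779 CPM in subcutaneous fat, its highest value being in animal 4 as for LPIN1 in that depot (adjusted p = 0.461).

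The third lipin, LPIN3, fell. It measured 29.6, 38.4, 36.5, 34.8 and 48.5 CPM in intramuscular fat, against 84.3, 74.8, 44.9, 52.4 and 61.2 CPM in subcutaneous fat (log2 fold change -0.76 ± 0.20, adjusted p = 0.0278). Its call was lost without intramuscular replicate 1, 2, 3 or 4 or subcutaneous replicate 2 (0.0519 to 0.0642). CTDNEP1, the phosphatase that activates lipins, averaged 84.8 ± 31.0 CPM in intramuscular and 58.5 ± 12.0 CPM in subcutaneous fat (adjusted p = 0.132). Of the 8 phosphatases and activators listed 0 were called higher and 1 lower.

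Of the 3 droplet genes with values 1 was called higher and 0 lower. LDAF1, a partner of seipin in droplet budding that the deposited table lists as TMEM159, averaged 39.5 ± 18.9 CPM in intramuscular and 17.2 ± 3.70 CPM in subcutaneous fat (adjusted p = 0.0248). The LDAF1 call was lost without intramuscular replicate 1, 2 or 3 (0.0519 to 0.0664). Seipin (BSCL2) measured 29.4 to 31.5 CPM in intramuscular and 36.8 to 42.8 CPM in subcutaneous fat, with no overlap and an adjusted p of 0.0679, and 0.0210 with DESeq2. FITM2, which binds the fat leaving the membrane, averaged 121 ± 50.6 CPM in intramuscular and 222 ± 55.7 CPM in subcutaneous fat (adjusted p = 0.0582, 0.0204 with DESeq2, 0.0467 with limma voom, 0.00714 with the animal as a block, 0.0362 without intramuscular replicate 4 and 0.0477 without subcutaneous replicate 1).

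In the branches that lead to phospholipid 1 of 15 genes was called higher and 3 lower. The diacylglycerol kinase DGKQ averaged 34.8 ± 2.52 CPM in intramuscular and 52.0 ± 5.49 CPM in subcutaneous fat with no overlap (adjusted p = 0.0181), and kept its call in all 10 fits that left out 1 library. CDIPT, which makes phosphatidylinositol, averaged 34.1 ± 4.34 CPM in intramuscular and 51.5 ± 8.83 CPM in subcutaneous fat (adjusted p = 0.0303). PCYT2, of phosphatidylethanolamine synthesis, measured 64.0, 76.4, 110.3, 227 and 196 CPM in intramuscular fat, against 131, 233, 443, 365 and 620.0 CPM in subcutaneous fat (adjusted p = 0.0496, and 0.00377 with the animal as a block). The PCYT2 call was lost with median ratio scaling (0.0503), upper quartile scaling (0.0515) and limma voom (0.0512). The kinase DGKG had 1.35 to 5.26 CPM in intramuscular and 0 to 1.42 CPM in subcutaneous fat (adjusted p = 0.0476). With 1 library left out the calls of CDIPT, PCYT2 and DGKG were lost in 6, 8 and 9 of 10 fits. For CDIPT these were the fits without intramuscular replicates 1 to 4 or subcutaneous replicates 3 or 5 (0.0514 to 0.0770). PCYT2 kept its call without intramuscular replicate 4 or subcutaneous replicate 1 alone (0.0517 to 0.111 in the others), and DGKG without subcutaneous replicate 1 alone (0.0567 to 0.109 in the others). CHPT1, which uses diacylglycerol to make phosphatidylcholine, averaged 159 ± 43.1 CPM in intramuscular and 236 ± 45.4 CPM in subcutaneous fat (adjusted p = 0.0858, 0.0451 with the animal as a block and 0.0483 without intramuscular replicate 4).

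Of 5 regulators with values in the list of lipid synthesis factors, 1 was called higher and 1 lower. The coactivator PPARGC1A was the 1 called higher and the 1 with a positive sign, against 4 with a negative sign. NR1H3, the liver X receptor alpha, averaged 65.6 ± 14.0 CPM in intramuscular and 112 ± 29.9 CPM in subcutaneous fat with no overlap (adjusted p = 0.0303). Its call was lost without intramuscular replicate 1, 2 or 3 or subcutaneous replicate 3 or 5 (0.0576 to 0.0798). PPARGC1A, a coactivator of oxidative genes and, in mouse, of lipin 1, measured 5.20 to 9.25 CPM in intramuscular and 1.82 to 4.32 CPM in subcutaneous fat (adjusted p = 0.0498). The PPARGC1A call held only without subcutaneous replicate 1 (0.0413) and lay at 0.0570 to 0.111 without any other single library. PPARG, the master regulator of fat cell formation, averaged 192 ± 64.3 CPM in intramuscular and 326 ± 56.2 CPM in subcutaneous fat with no overlap (adjusted p = 0.0589, 0.0209 with DESeq2 and 0.0400 without intramuscular replicate 4). MLXIPL, the carbohydrate response factor, averaged 146 ± 72.1 CPM in intramuscular and 245 ± 110.3 CPM in subcutaneous fat (adjusted p = 0.187, and 0.0320 with the animal as a block).

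The genes whose profiles were most like those of the members over the 10 libraries are given as a description, with no test. The libraries span both depots and differ in adipocyte level, and either may enter a profile. Each gene was picked for having the highest r among all tested genes over only 10 libraries. Such a choice by itself favours high values. By Pearson's r of log2 CPM the gene most like AGPAT2 was SDF2L1, a chaperone cofactor of the endoplasmic reticulum (r = 0.99). LPIN1 was most like the water and glycerol channel AQP3 (0.94), DGAT1 like RPH3AL (0.95), GPAT3 like EXTL1 (0.93), GPAM like the chloride transporter CLCN3 (0.95) and GPD1 like PUS1 (0.98). GPAT4, AGPAT1, AGPAT3 and LPIN2 were most like APRT, CATSPERB, YJEFN3 and SH2D5, at 0.95, 0.97, 0.94 and 0.93. The mean profile of the 10 members was most like SEC61A1, a subunit of the protein channel of the endoplasmic reticulum, at 0.95, followed by EHD2, CD163, WFS1 and COL4A2 at 0.94, 0.94, 0.94 and 0.93.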

How the data were processed

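Per the labels' protocols, total RNA was copied with random hexamers, given a dUTP second strand, amplified for 10 cycles and sequenced in pairs. STAR 2.7.11a, Trimmomatic 0.39, DESeq2 1.42.0 and featureCounts 2.0.2 are named, with no order, per the submitters' processing notes. The sources used here state neither genome build nor strand setting, and coordinates are those of the deposited table. The authors deposited raw counts per gene and library, a gene length in bases, a log2 fold change and an adjusted p-value. From the counts, CPM with TMM scaling and log2 CPM (prior count 2) were computed. CPM per kilobase used the deposited length, an authors' value of another kind.

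Depots were compared by the quasi-likelihood test of edgeR 4.0.16 in R 4.3.3 (two-sided, depot only, filterByExpr, 12521 of 12674 genes kept, Benjamini-Hochberg adjustment over all of them), tested on simulated data. Standard errors came from the fold change and its F statistic. Alternatives were other scalings, no filter, DESeq2 1.42.0, limma 3.58.1 voom, the animal as a block and libraries left out. Replicate numbers were taken as animals, since the design text gives both depots from the same 5 heifers. Deviations of same-numbered libraries correlated at 0.102 to 0.237, and each of the 10 was closest to its partner. The members and lists were chosen with earlier results of these data known. The text names the members, listed pathway genes past the threshold, up to 3 others of smallest p per list, and the most alike genes. GK, GPD1L, LCLAT1, AGPAT4, ACSL4, ACSL6, SREBF1, PLPP1, PLPP2, MOGAT3, DGKA and CDS1, which the rule also names, were not called. Of the listed genes 2 matched by an older symbol.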

Additional observations from a re-analysis of the deposited data

Results flagged for a closer look

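Of 84 sets of 5 values examined (42 genes in 2 depots), 7 held a library set apart from the rest. The critical value used gives about 1 in 20 by chance for independent sets of normally distributed values. The values here were CPM without a log scale and the sets share the same libraries, so that rate is only a rough guide. Each gap is given as a share of the whole range of the 5 values, against a critical value of 0.71. GPAT4 stood at 205 CPM in subcutaneous animal 5, with the next at 130.4 CPM (gap 0.761). LPIN1 stood at 229 CPM in subcutaneous animal 4, with the next at 64.2 CPM (0.747). ACSL4, an arachidonate-preferring synthetase, stood at 86.6 CPM in that same library, with the next at 28.5 CPM (0.804). ACSL6 was high in intramuscular animal 2 at 10.3 CPM (0.741). CTDNEP1 and the phosphatase PLPP2 were high in intramuscular animal 1, at 139 and 6.27 CPM (0.808 and 0.940). That library had the most striated muscle transcripts and the lowest adipocyte marker mean. DGKG was high in subcutaneous animal 1 at 1.42 CPM (0.793).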

How the results depend on the processing

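The members kept their direction in all 170 recalculations (10 members, 17 alternatives each) and their side of the threshold in 153. DGAT1 lost its call in 13, and calls were gained in 4: AGPAT2 with DESeq2, with the animal as a block and without subcutaneous replicate 1, and GPAT3 without that library. The count of members called lower was 0 with upper quartile scaling, with limma voom and without intramuscular replicates 1 and 3, and 2 with DESeq2. It ranged from 0 to 1 when single libraries were left out, as did the count called higher. Over all genes the calls were 845 higher and 688 lower. They were 1369 and 1171 with DESeq2, 306 and 67 without intramuscular replicates 1 and 3, and 494 to 1008 and 263 to 887 with 1 library left out. With the animals as a block they were 1013 and 871, and 1 member was called lower. Other pathway genes called, 6 higher and 6 lower, ranged from 2 to 6 and from 1 to 7 with 1 library left out, and were 1 and 0 without intramuscular replicates 1 and 3. They were 6 and 9 with the animals as a block, 7 and 9 with DESeq2, and 7 and 5 with limma voom. Log2 fold changes that turned sign were all of uncalled genes: GK (-0.0281 with limma voom and -0.0279 with the block), MOGAT3 (0.0188 with limma voom), and PLPP2 and LCLAT1 (-0.40 and -0.0937 without intramuscular replicates 1 and 3). With 1 library left out, GK ran from -0.12 to 0.18, MOGAT3 from -0.99 to 0.13, PLPP2 from -0.42 to 0.43, ACSL1 from -0.98 to 0.0368 and AGPAT4 from -0.99 to 0.31. The cause was not tested. The low level of DGKG in subcutaneous fat, 0 to 1.42 CPM, limits how well its fold change is known.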
